A study of Homo sapiens with 4 samples.

Results

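The 45 genes described here encode the machinery that licenses, fires and copies from human replication origins. They were taken by gene symbol, through the Ensembl identifiers of the count files, as 45 of the 69222 identifiers listed, and all 45 were found and tested. Origins are licensed in G1, when the origin recognition complex (ORC1 to ORC6), CDC6 and CDT1 load the MCM2-7 helicase onto DNA, and geminin (GMNN) later binds CDT1 to stop reloading. In S phase the CDC7-DBF4 kinase and cyclin-dependent kinases bring in CDC45 and the GINS complex, which complete the CMG helicase. Polymerase alpha-primase then lays down primers, polymerases epsilon and delta extend them on the PCNA clamp that replication factor C (RFC) loads, FEN1 and LIG1 join Okazaki fragments, and RPA, claspin (CLSPN) and TIPIN protect the fork.

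RNA came from HEK293T, an embryonic kidney cell line of human origin. All groups therefore express SV40 large T antigen, a viral protein that binds the RB family of S phase repressors. Cells of 2 samples received a control shRNA by lentivirus (shCtrl), and cells of 2 samples received an shRNA against RPRD1B (shRPRD1B), which encodes a protein that binds the phosphorylated tail of RNA polymerase II. The time between transduction and collection, the number of shRNAs used and whether replicates were separate cultures are not stated in the labels, so p-values measure only the spread between samples, which can be technical. The series' title links RPRD1B to polyadenylation of cell cycle genes. The libraries were made from poly(A) RNA and summarised as 1 read count per gene, which adds up all transcripts of a gene and does not show which poly(A) site was used. In bulk RNA, fewer cells in S phase and less RNA per cell cannot be told apart.

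The libraries held 47732913 to 65572391 counts. RPRD1B itself, on chromosome 20 at 38033746 to 38092364 (GRCh38.p14), was at 50.4 and 50.1 CPM (read counts scaled to library size) in shCtrl and at 27.2 and 35.5 CPM in shRPRD1B, so both shRPRD1B libraries were lower. Its log2 fold change was -0.68 ± 0.16 (SE), with an edgeR quasi-likelihood adjusted p of 0.448 and a DESeq2 adjusted p of 0.0467. Only 14 of 20319 tested genes passed the edgeR threshold of 0.05. The shRPRD1B libraries differed from each other far more than the shCtrl libraries did (chi-square per degree of freedom 98.6 against 8.97), so values are given per library throughout. Of the embryonic kidney line markers, VIM (162 to 212 CPM), NEFM (71.2 to 105 CPM) and KRT18 (48.4 to 58.7 CPM) were the highest. PAX2 was lower, at 7.51 and 8.38 CPM in shCtrl and 11.4 and 5.82 CPM in shRPRD1B, and LHX1 was at 0.20 to 0.35 CPM. KRT8 was at 27.1, 24.9 and 22.9 CPM but at 6.46 CPM in shRPRD1B replicate 2. Summed fibroblast markers were at most at 35.3 CPM, nearly all COL1A1, with COL1A2 at 0 counts in every library. COL1A1 was at 32.9 and 27.3 CPM in shCtrl and at 20.1 and 19.4 CPM in shRPRD1B, and its part in the results was not tested. LUM was at 2.20 and 2.45 CPM against 0.870 and 0.620 CPM, a log2 fold change of -1.62 ± 0.30 (edgeR adjusted p = 0.322, DESeq2 adjusted p = 0.0217), and its part was likewise not tested. Summed leukocyte markers reached at most 3.55 CPM and endothelial markers 1.05 CPM.

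No replication gene passed the adjusted threshold in edgeR or in DESeq2, beside 0.0689% of all tested genes called by edgeR and 1.18% by DESeq2. The median log2 fold change over the 45 genes, shRPRD1B minus shCtrl, was 0.08, beside 0.00 over all tested genes and 0.03 over the 6941 tested genes at or above the mean CPM of the lowest replication gene. The log2 fold changes ran from -0.37 for POLD2 to 0.37 for POLD3, and 35 genes lay within 0.2 of 0. There were 30 genes above 0 and 15 below. The share above 0 was 66.7%, beside 50.5% of all tested genes and 57.0% of the 6941 genes of comparable level. At an unadjusted p under 0.05 there were 3 genes, POLD3, RFC3 and LIG1, all higher in shRPRD1B. In all tested genes the share under that p was 7.49%, and the share under it and higher was 3.55%. A fit that leaves out a shCtrl library takes its within-group spread from the shRPRD1B libraries alone, which differed far more. In the fit without shCtrl replicate 1, and in the fit without shCtrl replicate 2, 0 replication genes were under that p.

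Both shRPRD1B libraries stood above both shCtrl libraries for 17 of the 45 genes and below for 4, while 24 overlapped. Of all tested genes, 20.3% stood above and 20.6% below. The 95% intervals were narrow for these well-counted genes, which had 1283 to 52713 counts in a library. All 45 intervals lay within a 2-fold change either way, beside 61.2% of all tested genes, and 36 lay within 1.5-fold. All tested genes include many of lower level. The median SE was 0.12 for the 45 genes, 0.13 over the 6941 genes of comparable level and 0.22 over all tested genes. A fall by more than 1.5-fold lay outside the interval for 42 of the genes. These are limits on the size of a difference and do not show that the groups were alike.

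**Figure D1:**
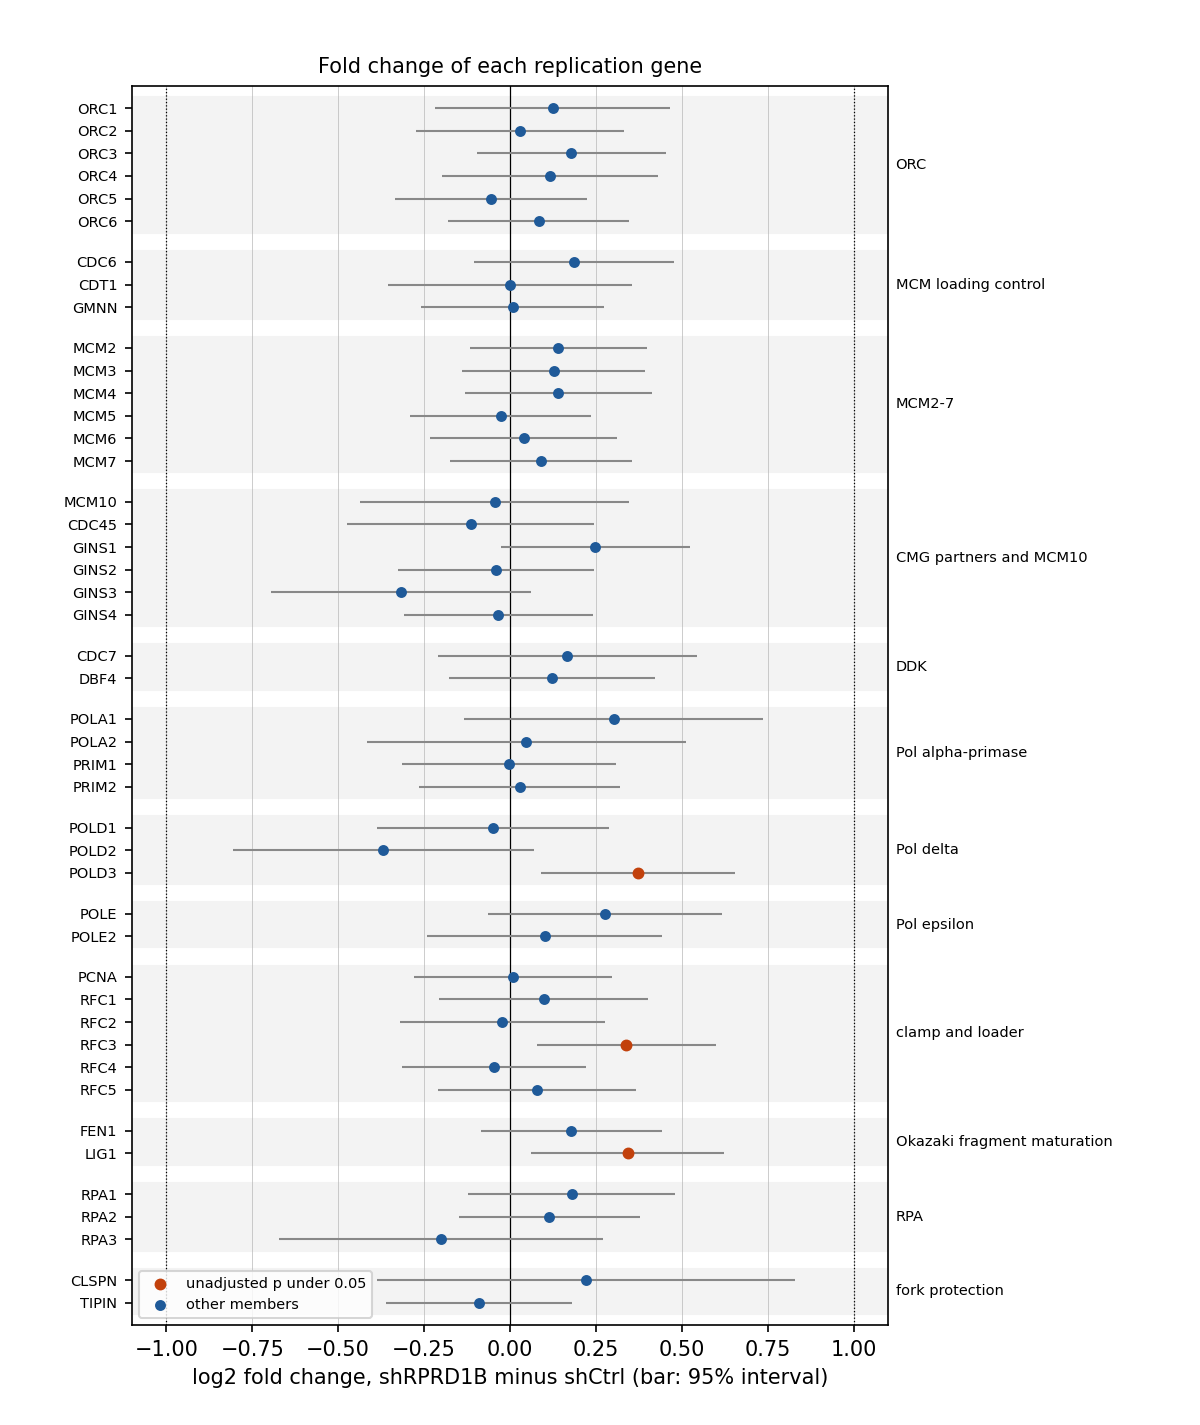
Fold change of each replication gene, shRPRD1B minus shCtrl on the log2 scale (x axis), with its 95% interval from edgeR as a bar, genes on the y axis grouped by subcomplex, and dotted lines at a 2-fold change. The 3 genes at an unadjusted p under 0.05, POLD3, RFC3 and LIG1, lie to the right of 0, POLD2 lies farthest to the left, and all 45 bars stay inside the dotted lines.

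The promoters show what many of these genes share in sequence. RefSeq promoter windows (GRCh38.p14, 250 bases before to 50 after a start) were matched for 39 of the 45 genes, as 50 windows. E2F transcription factors control many S phase genes through sites close to the words TTTCCCGC, TTTCGCGC, TTTGCCGC and TTTGGCGC, and on either strand at least 1 of these stood in 42.0% of the 50 windows, beside 3.31% of the 35116 windows of all genes. CCAAT, the word bound by NF-Y, stood in 54.0% beside 34.6%, and GGGCGG, a GC box, in 74% beside 45%. TTTGAA, a word of cell cycle promoters active in G2 and M, stood in 2.0% beside 15.2%. The windows of all genes were not limited to genes of comparable level, so these shares do not set replication genes against other well-counted genes. Upstream bases are printed for MCM6, which has the most E2F words, for RFC3 and LIG1, which are among the 3 genes at the smallest p, and for POLD2, the lowest fold change. Capitals mark E2F words and CCAAT, each on either strand, and the last base is the one before the start.

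MCM6, chr2:135876444-135876693, minus strand: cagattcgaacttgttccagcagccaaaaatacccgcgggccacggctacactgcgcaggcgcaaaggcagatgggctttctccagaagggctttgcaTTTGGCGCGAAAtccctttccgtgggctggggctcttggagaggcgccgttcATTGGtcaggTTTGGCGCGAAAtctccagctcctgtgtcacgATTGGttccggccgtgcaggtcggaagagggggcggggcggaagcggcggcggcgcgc
RFC3, chr13:33817899-33818148, plus strand: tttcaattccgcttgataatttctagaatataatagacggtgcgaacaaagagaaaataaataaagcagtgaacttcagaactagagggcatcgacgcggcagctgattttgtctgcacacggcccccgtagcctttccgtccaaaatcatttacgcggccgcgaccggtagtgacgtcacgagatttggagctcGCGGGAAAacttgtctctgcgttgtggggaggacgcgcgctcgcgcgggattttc
LIG1, chr19:48170345-48170594, minus strand: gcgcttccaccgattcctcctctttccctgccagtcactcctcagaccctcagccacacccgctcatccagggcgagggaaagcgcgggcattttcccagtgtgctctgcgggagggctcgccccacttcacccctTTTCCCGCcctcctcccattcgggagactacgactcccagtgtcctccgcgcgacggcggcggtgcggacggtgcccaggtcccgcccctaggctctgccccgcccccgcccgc
POLD2, chr7:44123549-44123798, minus strand: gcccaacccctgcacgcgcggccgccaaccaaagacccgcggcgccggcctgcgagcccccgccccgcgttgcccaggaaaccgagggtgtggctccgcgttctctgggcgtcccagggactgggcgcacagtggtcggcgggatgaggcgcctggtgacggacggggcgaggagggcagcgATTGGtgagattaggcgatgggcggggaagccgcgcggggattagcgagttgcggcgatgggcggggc

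The MCM6 window holds 4 E2F words, at -152, -148, -90 and -86 from the start, as 2 places where a word on one strand overlaps a word on the other, with CCAAT at -100 and -58. RFC3 holds 1 at -55 and LIG1 holds 1 at -114. POLD2 holds none in these bases and CCAAT at -68. The 21 genes with an E2F word in a window had a median log2 fold change of 0.13, with 17 above 0. The 18 matched genes without one had 0.03, with 10 above 0. Of all tested genes 50.5% were above 0, and of the 6941 genes of comparable level 57.0%. The 6 genes without a matched window, POLD3 among them, are in neither set. Genes of a list are not replicates, and the part of E2F words in the values was not tested. A match describes the letters and is not evidence of binding.

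Levels per length (CPM per kb of 1 transcript per gene) spanned a wide range in the shCtrl libraries. MCM7, a helicase subunit, was highest at 253 and 250 CPM per kb, followed by the clamp PCNA with a mean of 208, MCM4 with 157 and POLD2 with 126. POLA2, the accessory subunit of polymerase alpha, was lowest at 8.65 and 7.04, close to ORC4 at 8.42 and 8.54, and the libraries of these last genes overlapped. The median of the 45 genes was 35.0. By group, MCM2-7 had the highest median, 96.7 CPM per kb, and polymerase alpha-primase the lowest, 16.8.

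**Figure D2:**
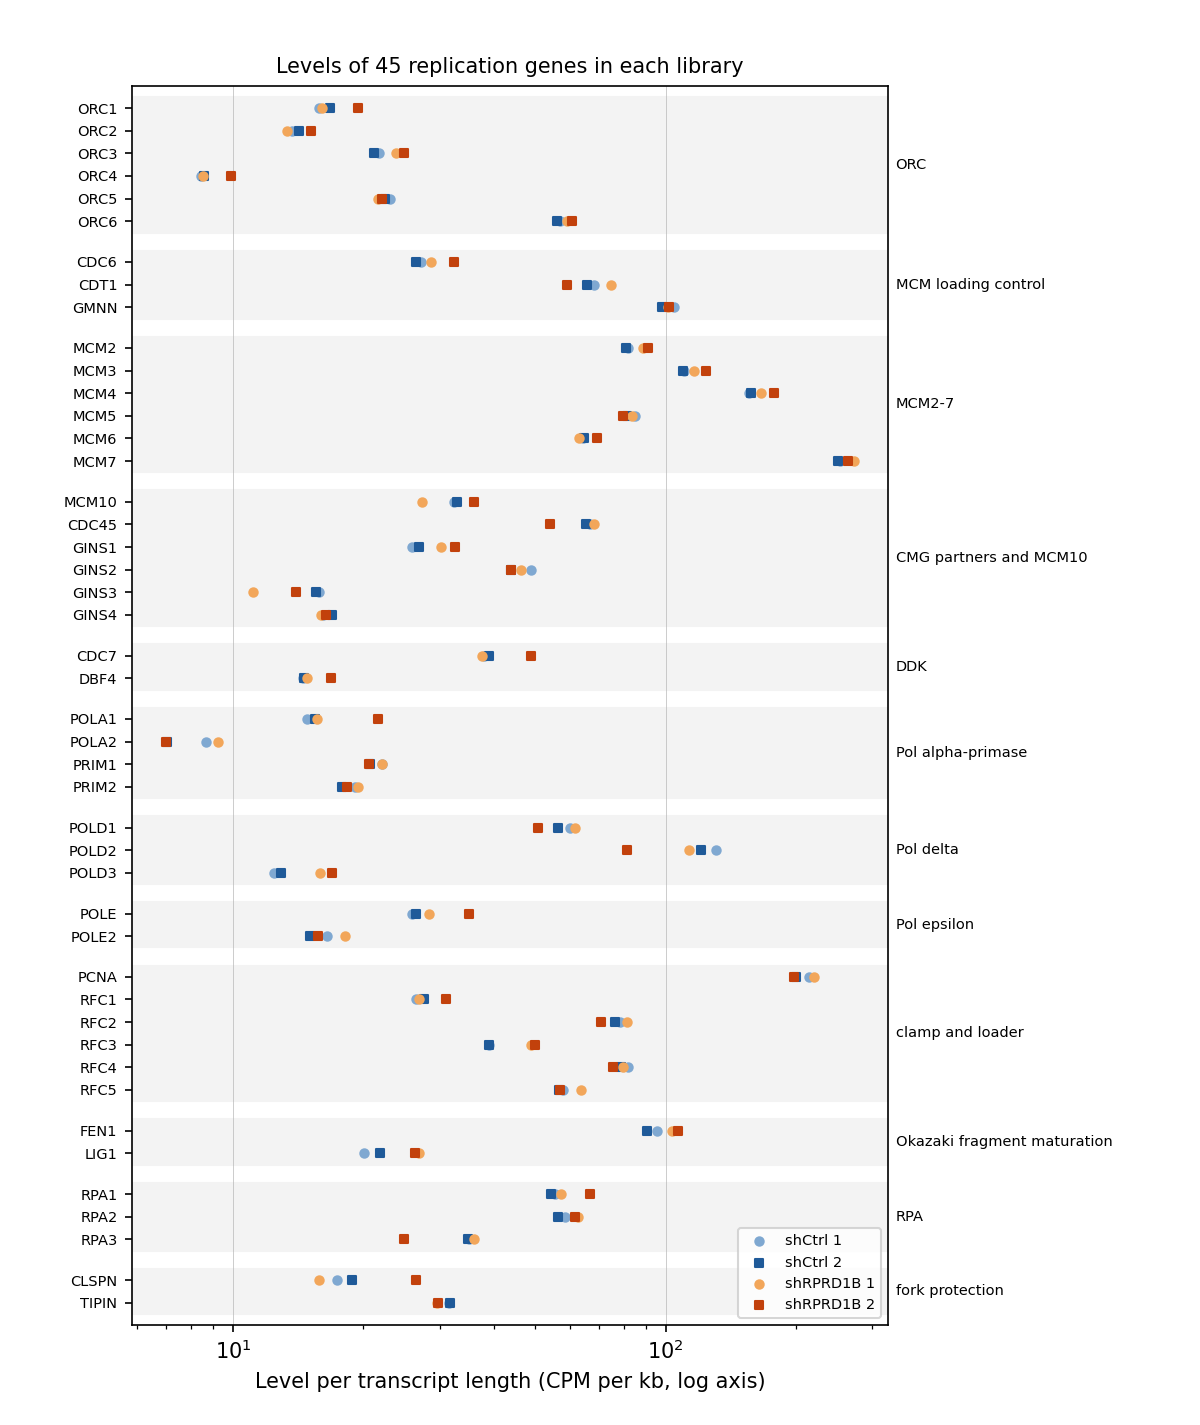
Level of each replication gene per transcript length (x axis, CPM per kb, log axis) in each of the 4 libraries, genes on the y axis grouped by subcomplex. MCM7 lies farthest right and POLA2 and ORC4 farthest left, and for most genes the 4 points lie close together beside the spread between genes.

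No origin recognition or loading factor differed between groups beyond the error of the fit. The median log2 fold change was 0.10 over the 6 ORC genes, of which 5 were above 0. ORC3, a core ORC subunit, was at 54.4 and 53.0 CPM in shCtrl and 59.4 and 62.1 CPM in shRPRD1B. The groups did not overlap, and its log2 fold change was 0.18 ± 0.11 (edgeR adjusted p = 0.728). ORC4 was at 56.5 and 57.3 CPM against 57.0 and 66.4 CPM, so that only shRPRD1B replicate 2 stood out (0.12 ± 0.13, edgeR adjusted p = 0.818). The other ORC genes ran from -0.05 (ORC5) to 0.12 (ORC1). CDC6, the ATPase that joins ORC at the origin, was at 131 and 127 CPM in shCtrl and 138 and 156 CPM in shRPRD1B, with a log2 fold change of 0.19 ± 0.12 (edgeR adjusted p = 0.730) and no overlap. GMNN, the brake on relicensing, was at 132 and 123 CPM against 128 and 129 CPM, a log2 fold change of 0.01 ± 0.11 (edgeR adjusted p = 0.987). CDT1, its target, was at 221 and 213 CPM against 242 and 191 CPM, with one shRPRD1B library above and the other below both shCtrl libraries. The ratio of CDT1 to GMNN per length was accordingly 0.653 and 0.671 in shCtrl and 0.736 and 0.579 in shRPRD1B.

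The helicase core had log2 fold changes between -0.03 and 0.14. Over MCM2-7 the median was 0.11. Both shRPRD1B libraries stood above both shCtrl libraries for 4 of the 6 subunits, as they did for 20.3% of all tested genes. MCM2 was at 297 and 293 CPM in shCtrl and 321 and 330 CPM in shRPRD1B (0.14 ± 0.10 on the log2 scale, edgeR adjusted p = 0.751). MCM4 was at 652 and 657 CPM against 696 and 747 CPM (0.14 ± 0.11, edgeR adjusted p = 0.761). MCM7, the most abundant member, was at 749 and 740 CPM against 804 and 781 CPM, and its log2 fold change of 0.09 ± 0.11 had an edgeR adjusted p of 0.832. All 3 had groups that did not overlap, and the differences were nonetheless within the error that the fit gives 2 against 2 libraries. MCM3 (0.13), MCM6 (0.04) and MCM5 (-0.03) made up the rest.

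The partners that turn MCM2-7 into an active helicase ran in both directions, and none passed the adjusted threshold. Among MCM10, CDC45 and the GINS genes the median log2 fold change was -0.04 and only GINS1 was above 0. GINS1 was at 84.4 and 87.3 CPM in shCtrl and 98.2 and 105.8 CPM in shRPRD1B, higher in both, by 0.25 ± 0.11 on the log2 scale (edgeR unadjusted p = 0.069, adjusted p = 0.682). GINS3, a subunit of the same tetramer, was at 35.8 and 35.3 CPM against 25.3 and 31.9 CPM, lower in both, with a log2 fold change of -0.32 ± 0.15 (edgeR unadjusted p = 0.0863, adjusted p = 0.696). The 95% intervals were -0.03 to 0.52 for GINS1 and -0.70 to 0.06 for GINS3. GINS2 and GINS4 were near 0, at -0.04 and -0.03. CDC45 was at 140 and 137 CPM against 143 and 113 CPM, and MCM10, which activates the assembled helicase, at 102 and 104 CPM against 86.2 and 114 CPM, so in each the shRPRD1B libraries lay on opposite sides of shCtrl. CDC7, the catalytic subunit of the kinase that fires origins, was at 126 and 129 CPM against 125 and 162 CPM, split in the same way (0.17 ± 0.15, edgeR adjusted p = 0.789), and DBF4, its activator, had a log2 fold change of 0.12.

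GINS3 also carries sites of a 6-base word, ACTAGC, that an earlier analysis of these data had picked out, so its presence is a description and supports nothing. The word stood in the 3′ UTR of 2 of the 45 genes, or 4.44%, beside 15.1% of the 6941 tested genes of comparable level. GINS3 holds it at bases 364 to 369 and again at 1116 to 1121 of its 1415-base 3′ UTR, and RFC1 holds it at bases 12 to 17 of its 1305-base 3′ UTR (GENCODE 29 transcripts), with the word in capitals here.

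GINS3, first site: gtacagtttcACTAGCcacaaagcac
GINS3, further site: acacctcacaACTAGCaaaaattgtc
RFC1, site: accatttttcACTAGCgacagccact

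RFC1, the large subunit of the clamp loader, was at 129 and 135 CPM in shCtrl and 131 and 151 CPM in shRPRD1B, a log2 fold change of 0.10 ± 0.12 (edgeR adjusted p = 0.841) with overlapping groups.

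Polymerase delta held both ends of the range. POLD3, an accessory subunit (chromosome 11, 74592582 to 74669341), was at 47.4 and 49.3 CPM in shCtrl and 60.5 and 64.7 CPM in shRPRD1B. Both shRPRD1B libraries were higher, by 0.37 ± 0.11 on the log2 scale (95% interval 0.09 to 0.65, edgeR unadjusted p = 0.0185, adjusted p = 0.588). POLD2, the subunit that links the catalytic chain to POLD3 (chromosome 7, 44114680 to 44124325), was at 282 and 260 CPM against 244 and 176 CPM. Both shRPRD1B libraries were lower, and most of the fold change of -0.37 ± 0.18 came from replicate 2 (95% interval -0.81 to 0.07, edgeR unadjusted p = 0.0851, adjusted p = 0.696). The ratio of POLD3 to POLD2 per length was 0.0951 and 0.107 in shCtrl and 0.140 and 0.208 in shRPRD1B, a description of a pair chosen after its values were seen. POLD1, the catalytic subunit, lay between, at -0.05. Polymerase epsilon, the leading strand enzyme, had POLE at 203 and 207 CPM against 222 and 275 CPM, higher in both, by 0.28 ± 0.14 (edgeR unadjusted p = 0.0943, adjusted p = 0.696), and POLE2 at 0.10.

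Primer synthesis genes overlapped except for 1. POLA1, the catalytic subunit of polymerase alpha, was at 81.1 and 84.9 CPM in shCtrl and 85.8 and 119 CPM in shRPRD1B. Its replicate 1 was barely above shCtrl, and the log2 fold change of 0.30 ± 0.18 had an edgeR adjusted p of 0.716. POLA2 was at 32.4 and 26.4 CPM against 34.5 and 26.2 CPM, with replicates differing within both groups (0.05 ± 0.19, edgeR adjusted p = 0.955). PRIM1 and PRIM2, the primase subunits, had log2 fold changes of -0.00 and 0.03.

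In the clamp and its loader, RFC3 stood apart from the other subunits. It lies on chromosome 13 at 33818149 to 33977377 and was at 93.9 and 93.6 CPM in shCtrl and 117 and 120 CPM in shRPRD1B. The log2 fold change was 0.34 ± 0.11 (95% interval 0.08 to 0.60, edgeR unadjusted p = 0.0196, adjusted p = 0.595). PCNA, RFC1, RFC2, RFC4 and RFC5 ran from -0.05 to 0.10 and each overlapped. RFC3 relative to RFC4 per length was 0.479 and 0.495 in shCtrl and 0.614 and 0.659 in shRPRD1B. This pair too was chosen after its values were seen, and the ratio is a description.

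Okazaki fragment maturation had the highest median, 0.26, from 2 genes. LIG1, the ligase that seals fragments (chromosome 19, 48115445 to 48170344), was at 67.9 and 74.1 CPM in shCtrl and 90.9 and 89.1 CPM in shRPRD1B. It was higher in both, by 0.34 ± 0.11 (95% interval 0.06 to 0.62, edgeR unadjusted p = 0.0246, adjusted p = 0.619). FEN1, the flap nuclease, was at 219 and 208 CPM against 237 and 246 CPM, also without overlap (0.18). The exons of LIG1, FEN1 and POLD3 overlap those of another annotated gene, as they do for 20 of the 45 genes, and the strand setting of the counting is not given in the labels, so reads of overlapping genes cannot be told apart. RFC3 and POLD2 have no such overlap.

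The genes that cover and guard the fork include RPA3 and CLSPN, whose shRPRD1B libraries lay farther apart than those of any other of the 45 genes. RPA1, the largest subunit of the RPA trimer, was at 240 and 235 CPM in shCtrl and 249 and 290 CPM in shRPRD1B (0.18 ± 0.12, edgeR adjusted p = 0.741). RPA2 was at 103 and 98.9 CPM against 110 and 108 CPM (0.11 ± 0.11, edgeR adjusted p = 0.792), and both were without overlap. RPA3 was at 71.1 and 70.4 CPM against 72.8 and 50.2 CPM, so only replicate 2 was low. CLSPN, the checkpoint adaptor, was the 1 member whose replicates differed by over 1.5-fold. It was at 72.6 and 78.4 CPM in shCtrl and at 65.8 and 110 CPM in shRPRD1B, below and above both controls, with a log2 fold change of 0.22 ± 0.25 (edgeR adjusted p = 0.822). TIPIN was at 55.1 and 55.4 CPM against 51.7 and 52.0 CPM, slightly lower in both (-0.09).

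**Figure D3:**
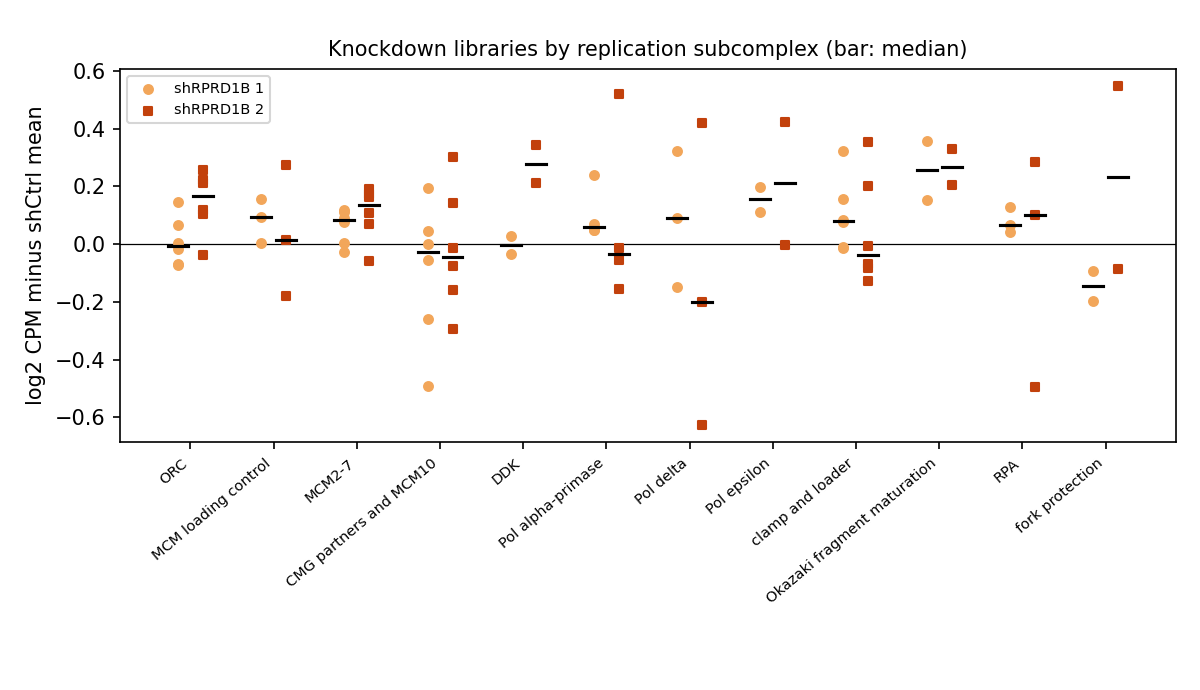
Log2 CPM of each shRPRD1B library minus the shCtrl mean (y axis) for the genes of each subcomplex (x axis), with a point per gene and a bar at the median. The Okazaki maturation and polymerase epsilon medians are above 0 in both libraries (0.26 and 0.27, then 0.16 and 0.21). So are those of MCM2-7, RPA and MCM loading control, while CMG partners and MCM10 are below 0 in both. Polymerase delta (0.09 and -0.20) and fork protection (-0.15 and 0.23) change sign between libraries. So do ORC, DDK, polymerase alpha-primase and clamp and loader.

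The shRPRD1B libraries were also read one at a time. Relative to the shCtrl mean, 31 of the 45 genes were above 0 in replicate 1 (median 0.06) and 26 in replicate 2 (median 0.10). Over the 6941 genes of comparable level the medians were 0.00 in replicate 1 and 0.06 in replicate 2. Both readings share the same shCtrl libraries. The shRPRD1B libraries lay farther apart than the shCtrl libraries for 37 genes. The median distance between libraries on the log2 scale was 0.05 in shCtrl and 0.15 in shRPRD1B, beside 0.06 and 0.23 over the 6941 genes of comparable level. In the edgeR fit without shRPRD1B replicate 1 the median log2 fold change of the 45 genes was 0.11. In the fit without shRPRD1B replicate 2 it was 0.07. Such a fit assumes that the lone shRPRD1B library varies like the shCtrl libraries, so its calls are not read here.

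Transcript length moved with the values of replicate 2. Across the 45 genes Pearson's r between log2 transcript length and the difference from the shCtrl mean was 0.54 in shRPRD1B replicate 2 and 0.03 in replicate 1, beside 0.50 and -0.05 across the 6941 comparable genes. These are correlations across genes within 1 library, which share that library and its base composition and are not independent replicates. In replicate 2, 3 of the 15 shortest transcripts (1262 to 2274 bases) were above 0, with a median of -0.07. Of the 15 longest (3622 to 7840 bases), 13 were above 0, with a median of 0.21. The medians of the same genes in replicate 1 were 0.05 and 0.05. POLE, POLA1 and CLSPN are among the long transcripts, and POLD2 and RPA3 among the short. GC content had r of -0.33 in replicate 2 and 0.15 in replicate 1 over the 45 genes. With a correction for length and GC content in each library, an alternative chosen after seeing the data, the medians in replicate 2 became 0.03 for the shortest and 0.09 for the longest. The log2 fold changes became 0.36 for RFC3, 0.35 for LIG1, 0.32 for POLD3, 0.22 for GINS1 and -0.32 for POLD2, each within 1.5 times the value before. Others of the 21 genes that the naming rule took became smaller by more than that. They fell to 0.04 for ORC4, 0.03 for RFC1, 0.07 for MCM4, 0.11 for CDC6, 0.15 for CLSPN, 0.01 for POLA2 and 0.10 for RPA1, while GMNN went from 0.01 to 0.11. Genes outside that rule moved too. In replicate 2 the difference from the shCtrl mean went from 0.12 to -0.02 for ORC2, from 0.11 to -0.01 for MCM6 and from -0.08 to 0.03 for RFC4. No replication gene passed the adjusted threshold with the correction.

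**Figure D4:**
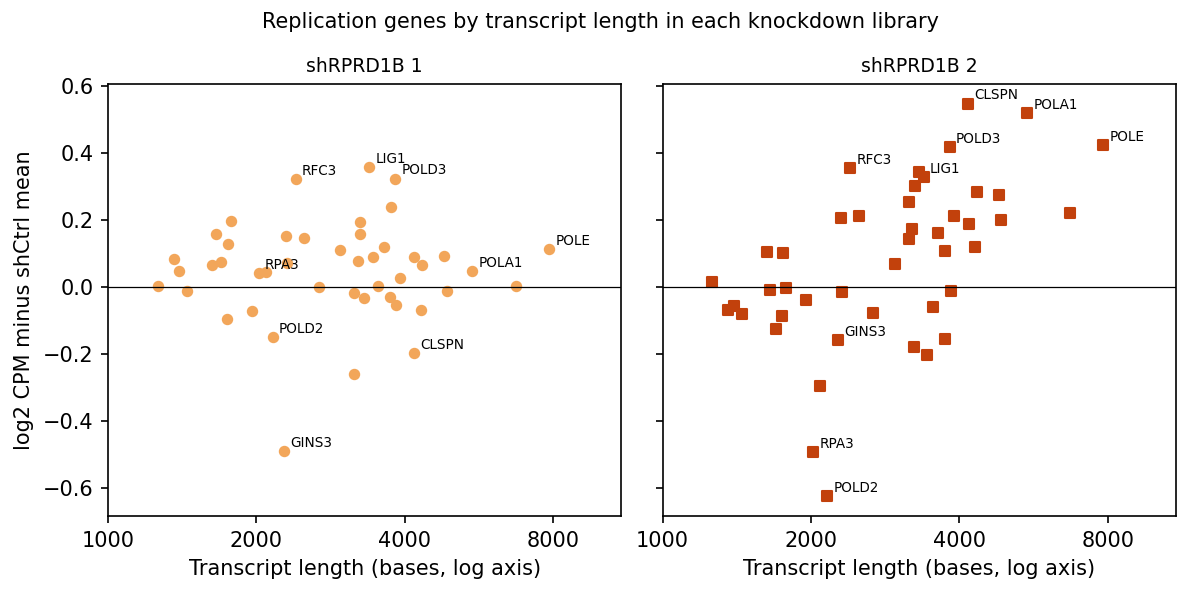
Log2 CPM minus the shCtrl mean (y axis) against transcript length in bases (x axis, log axis) for the 45 replication genes, in shRPRD1B replicate 1 (left) and replicate 2 (right). The right panel slopes upward (r of 0.54) and the left does not (r of 0.03), while RFC3, LIG1 and POLD3 are above 0 in both panels.

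Other replication factors, outside the 45, were read from the same fit. Of 36 listed, 34 were tested, with a median log2 fold change of 0.11 and 26 above 0, and none was called by edgeR or DESeq2. Above 0 were 50.5% of all tested genes and 57.0% of the 6941 genes of comparable level to the 45. At an unadjusted p under 0.05, 1 was higher and 2 were lower, where 7.49% of all tested genes were under that p. ATAD5, which helps unload PCNA, was at 37.2 and 38.2 CPM in shCtrl and 45.3 and 51.9 CPM in shRPRD1B (0.37 ± 0.13, edgeR adjusted p = 0.640). RNASEH2C and RNASEH2A, subunits of the nuclease that removes ribonucleotides from DNA, were lower in both shRPRD1B libraries. RNASEH2C was at 225 and 215 CPM against 175 and 148 CPM (-0.45 ± 0.13, edgeR adjusted p = 0.564), and its exons overlap those of KAT5. RNASEH2A was at 5.55 and 3.76 CPM against 2.73 and 2.96 CPM (-0.71 ± 0.27, edgeR adjusted p = 0.660). RNASEH2B, the remaining subunit, had a log2 fold change of 0.05. The exons of RNASEH2A overlap those of THSD8, and those of RNASEH2B and ATAD5 also overlap other annotated genes. ASF1B and FAM111A had at most 8 counts in any library and were not tested, and such low counts do not show a low transcript level.

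The regulators of S phase entry (E2F factors, RB family, cyclin E and A, and the machinery that degrades CDT1) also had no call. Of 27 listed, 26 were tested, with a median log2 fold change of 0.15 and 22 above 0. Above 0 were 50.5% of all tested genes and 57.0% of the 6941 genes of comparable level to the replication genes. Relative to the shCtrl mean, the median of these regulators was 0.10 in shRPRD1B replicate 1 and 0.25 in replicate 2. With the length and GC correction the medians were 0.09 and 0.16. At an unadjusted p under 0.05, 2 were higher and 0 lower, and 0 were called by edgeR or DESeq2. Of all tested genes, 7.49% were under that p, and 3.55% were under it and higher. CDK2, the kinase that drives S phase, was at 82.2 and 80.2 CPM in shCtrl and 106 and 95.7 CPM in shRPRD1B (0.32 ± 0.12, edgeR adjusted p = 0.656). RBL2, an RB family repressor, was at 57.3 and 56.1 CPM against 65.7 and 75.3 CPM (0.31 ± 0.12, edgeR adjusted p = 0.660). TFDP1, the partner of E2F proteins, was at 130 and 131 CPM against 148 and 176 CPM (0.31 ± 0.13, edgeR adjusted p = 0.674). All 3 had both shRPRD1B libraries above both shCtrl libraries, as did 20.3% of all tested genes. The exons of CDK2 and RBL2 overlap those of other annotated genes, and those of TFDP1 do not. E2F1, a main activator of these genes, was at 118 and 112 CPM against 121 and 111 CPM and overlapped. E2F2 had at most 5 counts in a library and was not tested.

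Markers of cycling cells did not move in 1 direction. Summed over 6 genes they were at 1158 and 1203 CPM in shCtrl and at 1136 and 1414 CPM in shRPRD1B, and 3 of the 6 had log2 fold changes above 0. MKI67 made up much of the high value of replicate 2, at 249 and 278 CPM against 279 and 463 CPM. Its transcript of 12678 bases is longer than that of any replication gene. In shRPRD1B replicate 2 its log2 difference from the shCtrl mean was 0.81, and 0.56 with the length and GC correction. The part of length in the MKI67 value was not tested. CDK1 was lower in both shRPRD1B libraries, at 150 and 150 CPM against 139 and 122 CPM (-0.20 ± 0.12, edgeR adjusted p = 0.716). The part of cell cycle distribution in the values of the replication genes was not tested.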

How the data were processed

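Poly(A) RNA-seq counts per gene were used as deposited, 1 file per library and no column left unused. Per the submitters' processing notes, the authors trimmed reads with Trim Galore, aligned them to hg38 with HISAT2 and counted them with featureCounts. Their versions, the annotation release and the strand setting were not given in the sources used here. Of 69222 identifiers, 62639 matched a symbol. Totals of 47732913 to 65572391 counts per library set the precision of each value. The main fit was edgeR 4.0.16 (R 4.3.3), quasi-likelihood with robust estimation, TMM factors and filterByExpr with a minimum count of 10, the group as its only term. Adjusted p-values are those of Benjamini and Hochberg over 20319 genes, with a threshold of 0.05, and SEs and 95% intervals came from the same fit. With 2 against 2 libraries no exact two-sided permutation p can go below 0.333. Log2 CPM used a prior count of 2. Levels per length, GC content and 3′ UTRs used 1 GENCODE 29 transcript per gene, and coordinates and promoters came from RefSeq (GRCh38.p14), matched by symbol.

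The members, gene lists, words and tests were chosen with earlier results of these data known. Library values are given for the 2 members of each subcomplex with the smallest p (1 where it has fewer than 3), those at an unadjusted p under 0.05, those of highest and lowest level per length, and those whose replicates differed by over 1.5-fold, and for the 3 smallest p of both further lists. Other names were chosen after their values were seen. Alternatives were DESeq2 size factors, library size alone, upper-quartile factors, limma 3.58.1 voom, DESeq2 1.42.0, the older quasi-likelihood method, 2 other low-count filters, a replicate block and leaving out each library. The length and GC correction (mgcv 1.9.3) was added after seeing the data. The fit was tested on simulated data. Replicates of a group differed by more than sampling noise, so none was counted as a duplicate.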

Additional observations from a re-analysis of the deposited data

How the results depend on the processing

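Over the 21 replication genes that the naming rule took, and the 10 alternatives that keep all libraries, 208 of the values kept their direction and their side of the threshold. The exceptions were GMNN under upper-quartile factors (-0.017) and under the filter of at least 5 CPM in 2 libraries (-0.0022), and the cause was not tested. CDT1, CDC45, MCM10, FEN1, RPA3 and TIPIN, also given by library, were outside that rule and are not in this count. Counts of all genes called higher and lower, 6 and 8, became 126 and 114 in DESeq2, 0 and 0 in limma voom and in the 5 CPM filter, 23 and 17 without a low-count filter and 15 and 18 with the length and GC correction, and the lower count became 3 by the older method. Under an unadjusted p of 0.05, the correction and the replicate block each gave 1 lower replication gene, where the main count was 0. RPRD1B was called by DESeq2 (-0.68). The subcomplex medians that moved by more than the spread were MCM loading control (0.11 with the correction), CMG partners and MCM10 (-0.069 with upper-quartile factors, -0.087 with the correction), Okazaki maturation (0.23 and 0.28) and RPA (0.089 with upper-quartile factors).

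The labels do not say that replicate numbers pair the samples, and the deviations of same-numbered samples correlated at 0.0134 over 20319 genes and at 0.315 over the 8930 genes with a mean log2 CPM of at least 4, among which all 45 replication genes fall. The fit with the replicate block called 85 genes higher and 56 lower and no replication gene.

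Leaving out each library in turn gave 12 to 3139 genes called higher and 36 to 3096 lower, 0 to 19 replication genes called higher and 0 to 5 lower, and 0 to 20 higher and 0 to 5 lower at an unadjusted p under 0.05. RPRD1B ran from -0.88 to -0.50. The values that changed sign ran from -0.031 to 0.34 for CDC7, -0.20 to 0.55 for CLSPN, -0.037 to 0.056 for GMNN, -0.16 to 0.23 for POLA2 and -0.0099 to 0.20 for RFC1. The medians ran from -0.073 to -0.026 for CMG partners and MCM10, -0.028 to 0.096 for MCM loading control, -0.035 to 0.14 for polymerase alpha-primase and 0.069 to 0.14 for RPA. Those of ORC (-0.0053 to 0.17), DDK (-0.0007 to 0.28), polymerase delta (-0.20 to 0.09), clamp and loader (-0.036 to 0.08) and fork protection (-0.14 to 0.23) also changed sign. Little can be said of ASF1B, FAM111A and E2F2, which had at most 8 counts in a library, and the cause of these low counts was not tested.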
